A study of Homo sapiens with 8 samples.

Results

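Transcripts of 10 receptor tyrosine kinases that are recurrent in glioblastoma biology, EGFR, ERBB2, PDGFRA, PDGFRB, MET, AXL, FGFR1, IGF1R, INSR and KDR, were followed in RNA-seq libraries of U87MG cells, an established human glioblastoma line. The set is defined by gene name, a choice made with earlier results of these data known, and its members are 10 of the 23368 genes listed in the deposited counts. All 10 had enough counts to be tested. The cells had been exposed to enzalutamide, an androgen receptor antagonist, for 4, 24 or 48 h, and were compared with control cells whose label gives no treatment. Each of the 4 groups held 2 libraries of the same line in serum-containing medium, and no vehicle, drug dose or harvest time of the controls is named in the labels. The extraction text of the labels mentions a differentiation step that the growth and treatment texts do not, which leaves the condition of the cells unclear. Whether each library came from its own culture is also not stated, and p-values then measure only how these libraries vary, which may be a technical spread.

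Receptor tyrosine kinases sit in the plasma membrane and bind growth factors on the outside of the cell. Binding brings receptors together, their kinase domains phosphorylate one another, and adaptor proteins then carry the signal to the RAS-ERK and PI3K-AKT cascades. In glioblastoma EGFR and PDGFRA are well-known targets of amplification, MET and AXL are studied for invasion and drug resistance, and KDR, the main VEGF receptor of blood vessels, is best known from the tumour endothelium. Transcript levels say nothing of receptor protein or phosphorylation, neither of which was measured.

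Total counts per library lay between 24620833 and 37162565, and the 10 receptors took 0.122 to 0.172% of them. Across genes, the libraries of a group correlated with Pearson's r of 0.992 to 0.995. The 48 h libraries stood apart from the other 6 on the first principal component, which held 65.8% of the variance. Markers of glia were uneven in this line. VIM, a mesenchymal and glial filament gene, was abundant, NES, another filament gene, averaged 26.1 ± 1.37 CPM in control cells (counts per 1000000 after scaling, SD, n = 2), and AQP4 had 0 counts in all 8 libraries at a depth where 3 counts per library could go unseen. GFAP had 2 to 22 counts per library, and SOX2 at most 1. Summed marker levels per library were 40.3 to 52.0 CPM for neurons, 85.0 to 99.8 CPM for oligodendrocytes and 0.316 to 0.64 CPM for immune cells.

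At 48 h of enzalutamide 5 of the 10 receptors, ERBB2, PDGFRA, PDGFRB, IGF1R and KDR, were lower than in control cells and EGFR was higher, by edgeR's quasi-likelihood test at a Benjamini-Hochberg adjusted p under 0.05. KDR had the largest change among them, a 4.12-fold lower level. These 6 calls stand against 66.9% of all tested genes called at 48 h, 33.3% higher and 33.5% lower, so the number of receptors called was not above the background. At 4 h PDGFRA and PDGFRB were higher and ERBB2 and MET lower, 4 calls against a background of 28.6%, 15% higher and 13.6% lower. At 24 h PDGFRA, MET and AXL were higher and KDR lower, 4 calls against a background of 22.3%, 12.9% higher and 9.39% lower. The comparisons share the same 2 control libraries. The median log2 change of the 10 receptors was 0.10 at 4 h, 0.17 at 24 h and -0.51 at 48 h, beside 0.00, 0.02 and -0.02 over all tested genes. It was 0.06 at 4 h and 0.09 at 24 h without Control replicate 1, and -0.30 at 48 h without 48 h replicate 1. After correcting for transcript length and GC it was 0.06 at 4 h, 0.10 at 24 h and -0.40 at 48 h. Libraries of the drug-treated and control cells did not overlap for 9 receptors at 4 h, 8 at 24 h and 7 at 48 h, where the share over all tested genes was 68.6%, 66.2% and 82%. The 4 calls at 4 h and the 4 at 24 h were less secure than those at 48 h. Without 4 h replicate 1, edgeR called 0 receptors at 4 h, and without Control replicate 1 it called 0 at 24 h, with 4 receptors at an unadjusted p under 0.05 in each case. DESeq2 on all libraries called 4 at 4 h and 3 at 24 h.

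**Figure D1:**
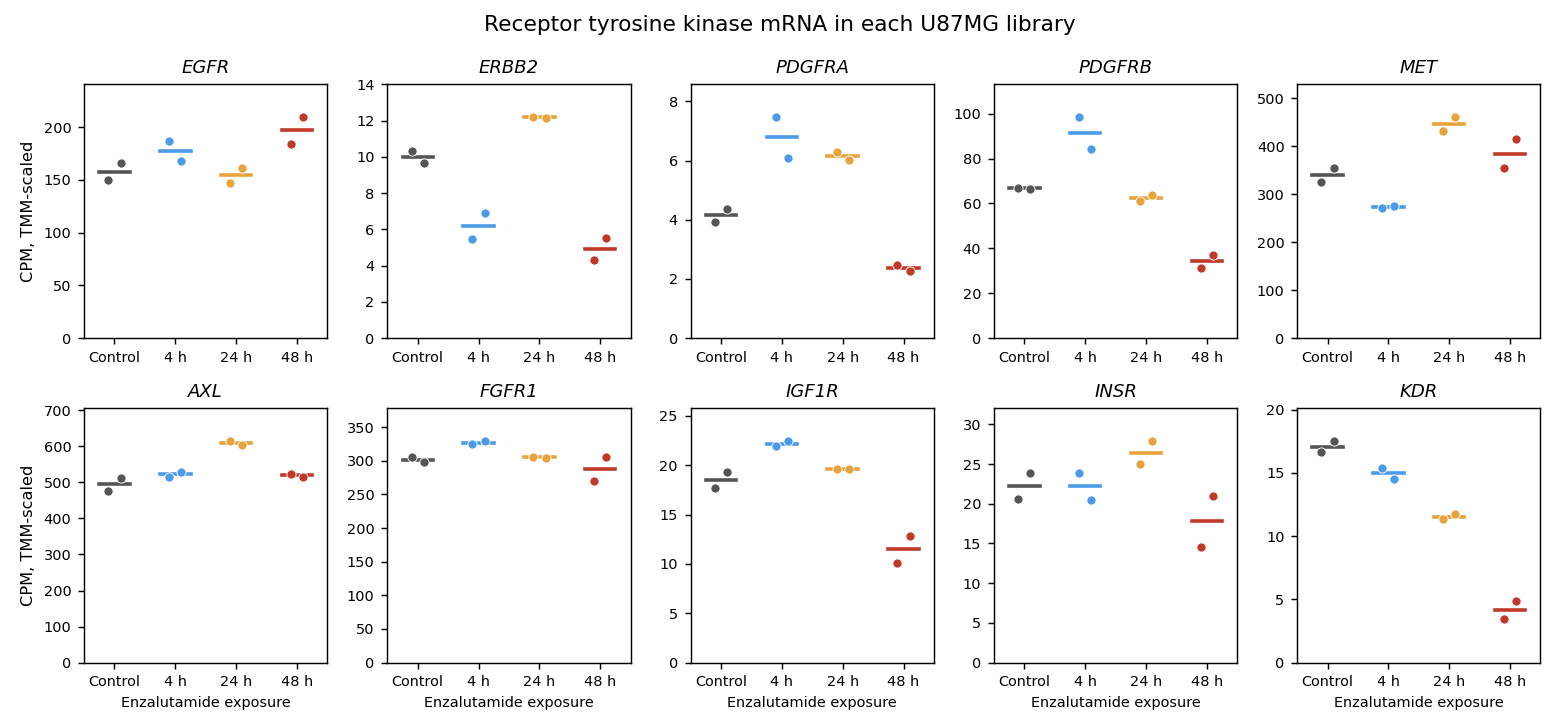
Levels of the 10 receptors in each of the 8 libraries, as CPM scaled by TMM factors, with 1 panel per gene and the 4 groups in time order. Points are libraries and bars are group means. KDR lies lower at each later time, with 48 h libraries at 3.44 and 4.85 CPM, while FGFR1 stays between 271 and 329 CPM.

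**Figure D2:**
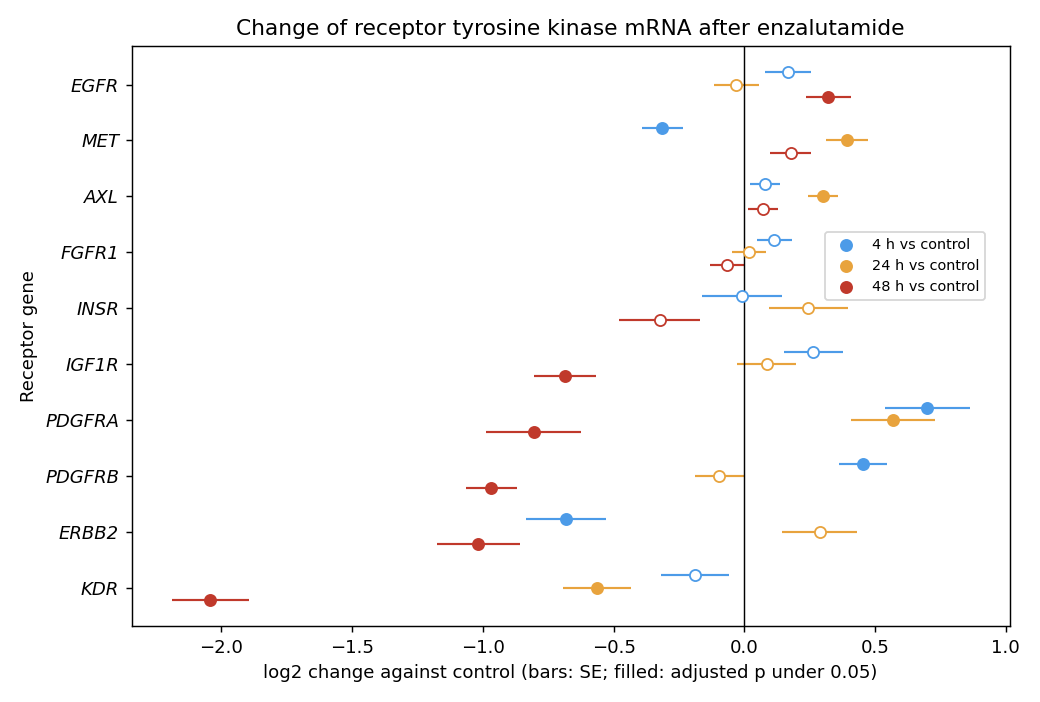
Fitted log2 change of each receptor at 4, 24 and 48 h against control cells, with error bars of 1 standard error (2 libraries per group), filled points marking an adjusted p under 0.05. KDR reaches -2.04 at 48 h, and PDGFRA and PDGFRB are above 0 at 4 h and below 0 at 48 h.

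To compare levels between genes, CPM was divided by the length of the longest annotated transcript of each gene in kb, taken from GENCODE on GRCh38 and matched by symbol. Which isoforms the cells used was not measured. On this scale AXL, the receptor of GAS6, led in every library. It averaged 104.4 CPM per kb in control cells and took 42.8 to 46.9% of the summed level of the 10 receptors. MET and FGFR1 followed in control cells, at 51.2 ± 3.24 and 48.6 ± 0.845 CPM per kb, and their libraries overlapped, so their order was not resolved. EGFR was at 16.0 ± 1.16 and PDGFRB at 11.7 ± 0.08 CPM per kb. The other 5 were between 0.632 CPM per kb for PDGFRA and 2.82 CPM per kb for KDR, with INSR, ERBB2 and IGF1R in between. Among 12765 genes with a known length, AXL stood above 96.5% of genes in control cells, EGFR above 72.2% and PDGFRA above 16.1%. KDR was at place 9 of 10 at 48 h and at place 6 in control cells. FGFR1 was above MET at 4 h, where the libraries did not overlap, and EGFR (17.1 to 19.0 CPM per kb) overlapped PDGFRB (14.8 to 17.3 CPM per kb). With the summed exon length of each gene in place of the longest transcript, the order in control cells was the same.

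**Figure D3:**
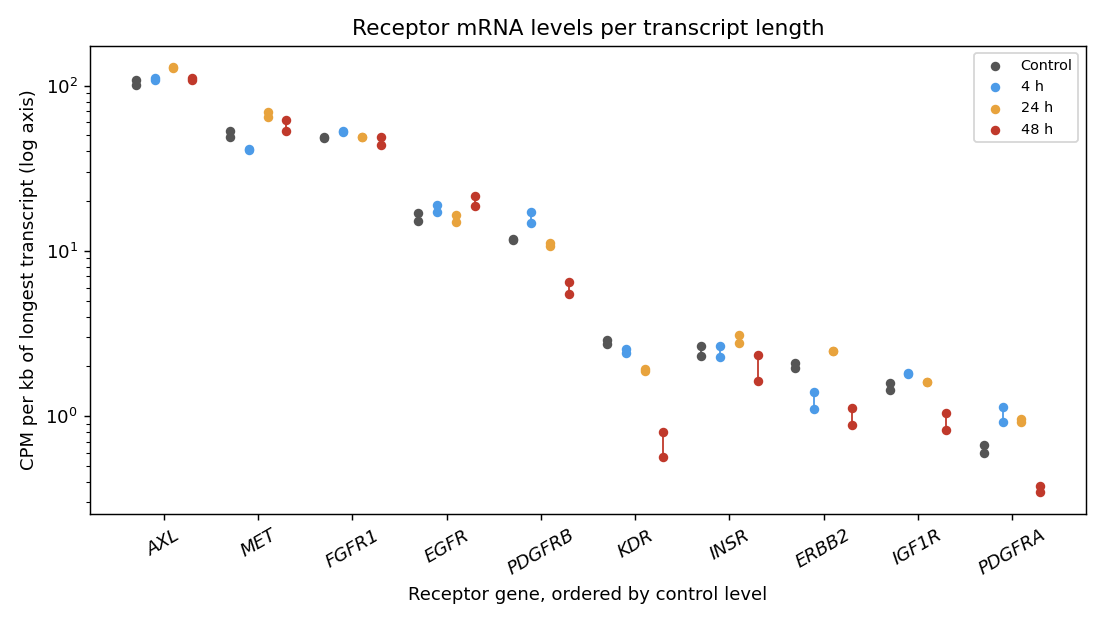
Level of each receptor per kb of transcript, on a log axis, in the libraries of each group. AXL is highest in every library, MET and FGFR1 follow, and KDR lies below IGF1R at 48 h.

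EGFR and ERBB2 belong to 1 family. EGFR binds EGF, TGFA and related ligands, while ERBB2 has no known soluble ligand of its own and acts as the dimer partner. EGFR had 149 and 166 CPM in control libraries, 186 and 168 CPM at 4 h, 147 and 161 CPM at 24 h, and 184 and 210 CPM at 48 h. The 48 h libraries were both above the controls, those at 24 h overlapped them, and those at 4 h lay above them by a small margin. EGFR was 1.25-fold higher at 48 h (log2 change 0.32 ± 0.09 SE, adjusted p = 0.00641) and was not called at 4 h (0.17, adjusted p = 0.174) or 24 h (-0.03, adjusted p = 0.844). The 4 h change was called in 3 of 18 other settings, without the 48 h libraries (0.17, adjusted p = 0.045) and after correcting for transcript length and GC with and without the block (0.19 in both, adjusted p = 0.0201 and 0.0193), in a range of 0.0193 to 0.612. The rise at 48 h was not called with library totals as the only scaling (0.04, adjusted p = 0.683) or without Control replicate 1 (0.25, adjusted p = 0.067), in a range over the other settings of 1.45e-05 to 0.683.

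ERBB2 had 10.3 and 9.64 CPM in control libraries, 5.44 and 6.91 CPM at 4 h, 12.2 CPM in both libraries at 24 h, and 4.32 and 5.53 CPM at 48 h. The 4 h and 48 h libraries were all below the controls and the 24 h libraries above them, with no overlap. It was 1.6-fold lower at 4 h (log2 change -0.68 ± 0.15, adjusted p = 0.00728) and 2.02-fold lower at 48 h (-1.02 ± 0.16, adjusted p = 0.00016). At 24 h the change of 0.29 was not called (adjusted p = 0.181). The 4 h call was lost without Control replicate 1 (adjusted p = 0.0546) and without 4 h replicate 1 (adjusted p = 0.0719), in a range over the other settings of 0.000993 to 0.0719. The exons of ERBB2 overlap those of PGAP3 on the opposite strand by 194 bases in the annotation, and the use of strand in counting is not given in the sources used here, so some reads of the 2 genes may not be told apart.

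PDGFRA and PDGFRB are the receptors of the platelet-derived growth factors. PDGFRA responds to the PDGFA, PDGFB and PDGFC ligands, and PDGFRB, also a marker of the mural cells that coat vessels, to PDGFB and PDGFD. PDGFRA had the lowest mean level per kb of the 10 in each group, with 66 to 240 counts per library. Its libraries had 3.94 and 4.37 CPM in control cells, 7.48 and 6.09 CPM at 4 h, 6.30 and 6.02 CPM at 24 h, and 2.48 and 2.27 CPM at 48 h. Both early times lay above the controls and 48 h below them, with no overlap. The exons of PDGFRA overlap those of AC058822.1, a protein-coding gene on the same strand, by 1533 bases in the annotation. AC058822.1 is not among the genes listed in the counts, so some of its reads may be counted as PDGFRA. PDGFRA was 1.62-fold higher at 4 h (log2 change 0.70 ± 0.16, adjusted p = 0.00813), 1.48-fold higher at 24 h (0.57 ± 0.16, adjusted p = 0.0266) and 1.75-fold lower at 48 h (-0.81 ± 0.18, adjusted p = 0.00217). The 4 h call was lost without Control replicate 1 (adjusted p = 0.0694) and without 4 h replicate 1 (adjusted p = 0.0749), in a range of 0.0027 to 0.0749. The 24 h call was lost in DESeq2 (adjusted p = 0.0577) and on leaving out any 1 of the 4 libraries involved, in a range of 0.00986 to 0.171.

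PDGFRB had 67.1 and 66.4 CPM in control libraries, 98.6 and 84.4 CPM at 4 h, 61.2 and 63.8 CPM at 24 h, and 31.3 and 37.0 CPM at 48 h. The 4 h libraries were above the controls, the 24 h libraries slightly below, and the 48 h libraries far below. The gene was 1.37-fold higher at 4 h (log2 change 0.45 ± 0.09, adjusted p = 0.00428) and 1.95-fold lower at 48 h (-0.97 ± 0.10, adjusted p = 5.18e-06). Without 4 h replicate 1 the rise at 4 h was not called (adjusted p = 0.0599), in a range of 8.2e-05 to 0.0599. Other genes used as markers of mural cells were also looked at. Of 6 on the list, 5 were tested and all 5, RGS5, ABCC9, NOTCH3, CSPG4 and MCAM, were lower at 48 h, 4 of them also in DESeq2. At 4 h 2 were higher (NOTCH3 and MCAM) and 2 lower (ABCC9 and CSPG4), with a median log2 change of -0.09, and at 24 h 2 were higher (CSPG4 and MCAM) and 1 lower (ABCC9). Their summed level with KCNJ8, of which NOTCH3 made up the largest share, was 503 to 594 CPM at 4 h, 490 to 491 CPM at 24 h and 185 to 246 CPM at 48 h, against 402 to 415 CPM in control cells. KCNJ8 had 0 to 12 counts per library. Their part in the result was not tested. All libraries were of the same line, and in bulk RNA fewer cells in a given state and less RNA per cell cannot be told apart.

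MET is the receptor of hepatocyte growth factor, and U87MG cells are known to make both the receptor and this ligand. MET had 325 and 355 CPM in control libraries, 272 and 275 CPM at 4 h, 431 and 462 CPM at 24 h, and 354 and 414 CPM at 48 h. The 4 h libraries were below the controls, the 24 h libraries above them, and the 48 h libraries overlapped them. MET was 1.24-fold lower at 4 h (log2 change -0.31 ± 0.08, adjusted p = 0.0135) and 1.31-fold higher at 24 h (0.39 ± 0.08, adjusted p = 0.00531). The call at 4 h was lost without Control replicate 2, 4 h replicate 1 or 4 h replicate 2 (adjusted p = 0.12, 0.0865 and 0.0723), in a range of 0.00039 to 0.12. The call at 24 h was lost without Control replicate 1 or 24 h replicate 2 (adjusted p = 0.0701 and 0.0699), in a range of 4.09e-05 to 0.0701. At 48 h the change of 0.18 ± 0.08 was not called (adjusted p = 0.0696), and it was called with the replicate number as a block (0.18, adjusted p = 0.0229), without 48 h replicate 1 (0.29, adjusted p = 0.00143), with no filter (0.19, adjusted p = 0.0464) and after correcting for transcript length and GC (0.29, adjusted p = 0.000294). With library totals its sign was negative (-0.10, adjusted p = 0.334), in a range of 0.000123 to 0.38.

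AXL had 478 and 512 CPM in control libraries, 516 and 528 CPM at 4 h, 614 and 605 CPM at 24 h, and 524 and 515 CPM at 48 h. All 6 treated libraries lay above the controls, those of 4 h and 48 h by a small margin. AXL was 1.23-fold higher at 24 h (log2 change 0.30 ± 0.06, adjusted p = 0.00382), and the changes at 4 h (0.08, adjusted p = 0.347) and 48 h (0.07, adjusted p = 0.295) were not called. The 24 h call was lost without Control replicate 1 (adjusted p = 0.0575), in a range of 0.000226 to 0.0575. At 48 h AXL was called lower with library totals (-0.21, adjusted p = 0.00769) and higher with the length and GC correction (0.14, adjusted p = 0.0314), so its direction there depends on the scaling.

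FGFR1, a receptor of fibroblast growth factors, had 306 and 298 CPM in control libraries, 325 and 329 CPM at 4 h, 306 and 305 CPM at 24 h, and 271 and 306 CPM at 48 h. The 4 h libraries lay above the controls, and those of 24 h and 48 h overlapped them. FGFR1 was not called in any of the 5 comparisons. The 48 h change was -0.07 ± 0.07 (adjusted p = 0.389), negative and called with library totals (-0.34, adjusted p = 0.00147) or without 48 h replicate 2 (-0.15, adjusted p = 0.0349), and slightly positive with the length and GC correction (0.05), in a range of 0.00147 to 0.749.

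IGF1R and INSR are the closely related receptors of insulin-like growth factors and insulin. IGF1R had 17.7 and 19.3 CPM in control libraries, 21.9 and 22.4 CPM at 4 h, 19.6 and 19.7 CPM at 24 h, and 10.1 and 12.8 CPM at 48 h. The 48 h libraries were well below the other 6. It was 1.61-fold lower at 48 h (log2 change -0.69 ± 0.12, adjusted p = 0.000342). At 4 h the change of 0.26 was not called (adjusted p = 0.106), and it was called in 4 of 18 other settings. They were without the 48 h libraries (0.27, adjusted p = 0.0206), only the groups compared (0.265, adjusted p = 0.0351), and without 48 h replicate 1 or 48 h replicate 2 (0.264 in both). Over all of the other settings this change ran from 0.20 to 0.325. INSR had 20.7 and 23.9 CPM in control libraries, 23.9 and 20.5 CPM at 4 h, 24.9 and 27.8 CPM at 24 h, and 14.6 and 21.0 CPM at 48 h. Its 48 h libraries differed from each other and 1 of them overlapped the controls. INSR was not called against control cells at any time (48 h log2 change -0.32 ± 0.16, adjusted p = 0.0874). The 48 h change was called without 48 h replicate 2 (-0.60, adjusted p = 0.000889), with library totals (-0.60, adjusted p = 0.00803) and with a filter of 5 CPM (-0.41, adjusted p = 0.0442), and was as small as -0.08 without 48 h replicate 1 (adjusted p = 0.6), in a range of 0.000889 to 0.6.

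KDR encodes VEGF receptor 2. It had 16.6 and 17.5 CPM in control libraries, 15.4 and 14.6 CPM at 4 h, 11.4 and 11.7 CPM at 24 h, and 3.44 and 4.85 CPM at 48 h. Each later group lay below the one before it with no overlap. KDR was not called at 4 h (log2 change -0.19 ± 0.13, adjusted p = 0.307), was 1.48-fold lower at 24 h (-0.56 ± 0.13, adjusted p = 0.0107) and 4.12-fold lower at 48 h (-2.04 ± 0.15, adjusted p = 4.22e-07). Among all tested genes, 5.1% had a lower log2 change than KDR at 48 h. The 24 h call was lost on leaving out any 1 of the 4 libraries involved (adjusted p = 0.0561 to 0.0859), in a range of 0.000172 to 0.0859. KDR is a gene of endothelial cells, so 8 other endothelial genes were looked at. CDH5 had at most 3 counts and CLDN5 at most 2 in any library. Of the 8, 4 were tested and none was called at 48 h, where 0 had an unadjusted p under 0.05 in edgeR and DESeq2 called 0. Their summed level was 2.65 to 4.12 CPM at 48 h, against 4.08 to 4.99 CPM in control cells. Such low levels limit what the lack of calls can show. At 24 h 1 of the 4 tested, TEK, was higher (1.046 ± 0.274, adjusted p = 0.0193), and at 4 h 1 was higher. None was lower at 4 h or 24 h.

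The falls of ERBB2, PDGFRA, PDGFRB, IGF1R and KDR at 48 h were called under all 17 other settings run for that comparison. KDR ranged over them from -2.32 to -1.81, PDGFRB from -1.24 to -0.85, ERBB2 from -1.29 to -0.85, PDGFRA from -1.08 to -0.68 and IGF1R from -0.96 to -0.52. Markers of glioma cells and astrocytes moved at the same time. Of 7 tested, SLC1A3 (-2.38), SOX9 (-2.24), NES (-1.11), GFAP (-2.02) and SLC1A2 (-2.02) were lower at 48 h and VIM (0.71) was higher, with a median of -2.02. Over all tested genes 33.3% were called higher and 33.5% lower at 48 h. The summed level of the 11 listed, most of it VIM, was 12500 to 13700 CPM at 48 h, against 7980 to 8130 CPM in control cells. Their part in the receptors' falls was not tested. Longer genes were lower at 48 h in these libraries as a whole. The median log2 change was 0.24 in the fifth of genes with the shortest transcripts and -0.22 in the fifth with the longest. At 24 h these medians were -0.04 and 0.10, in the opposite order. The 10 receptors have transcripts of 4.74 to 12.2 kb. After correcting for transcript length and GC, KDR changed by -1.91, PDGFRB by -0.89, ERBB2 by -0.96, PDGFRA by -0.68 and IGF1R by -0.61, all called. Scaled by library totals alone, the median of all genes shifted to -0.30 at 48 h, 8 receptors were called lower, and EGFR was not called. DESeq2 with its own size factors called 1 higher and 5 lower.

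The promoters of KDR, PDGFRB and IGF1R, which were lower together at 48 h, and of EGFR, which was higher, are shown for their base composition. The 250 bases before the annotated RefSeq start are given on GRCh38.p14 in the direction of transcription, with GC boxes (GGGCGG, or CCGCCC when on the other strand) in capitals. They are KDR at chr4:55125596-55125845 (minus strand), PDGFRB at chr5:150155846-150156095 (minus strand), IGF1R at chr15:98648289-98648538 (plus strand) and EGFR at chr7:55018767-55019016 (plus strand, the upstream of 2 starts).
KDR: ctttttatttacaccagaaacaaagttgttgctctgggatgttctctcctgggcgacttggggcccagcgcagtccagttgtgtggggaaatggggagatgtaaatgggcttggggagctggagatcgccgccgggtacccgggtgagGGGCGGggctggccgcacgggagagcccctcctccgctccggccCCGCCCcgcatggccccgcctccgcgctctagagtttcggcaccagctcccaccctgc
PDGFRB: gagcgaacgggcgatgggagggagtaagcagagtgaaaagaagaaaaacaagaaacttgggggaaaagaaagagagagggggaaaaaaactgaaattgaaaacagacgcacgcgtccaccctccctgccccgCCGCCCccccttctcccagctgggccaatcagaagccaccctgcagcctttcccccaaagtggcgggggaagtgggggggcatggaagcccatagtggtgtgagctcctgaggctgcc
IGF1R: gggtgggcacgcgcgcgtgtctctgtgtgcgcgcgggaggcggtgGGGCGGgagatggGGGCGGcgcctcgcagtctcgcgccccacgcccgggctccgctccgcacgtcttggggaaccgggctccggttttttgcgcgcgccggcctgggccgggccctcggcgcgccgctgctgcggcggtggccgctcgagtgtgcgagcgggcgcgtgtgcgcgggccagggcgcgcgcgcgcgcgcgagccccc
EGFR: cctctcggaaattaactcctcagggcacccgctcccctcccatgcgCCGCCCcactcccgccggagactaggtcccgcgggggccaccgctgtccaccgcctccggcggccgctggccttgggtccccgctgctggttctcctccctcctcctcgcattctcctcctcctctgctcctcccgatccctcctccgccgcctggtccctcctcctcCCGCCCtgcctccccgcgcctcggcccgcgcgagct
KDR, IGF1R and EGFR each hold 2 GC boxes and PDGFRB 1, a motif found in 42.6% of 35116 such windows on either strand. G and C made up 65.2% of the KDR window, 58.4% of PDGFRB, 81.2% of IGF1R and 73.6% of EGFR, around a median of 58.0% over all windows. The IGF1R window held 48 CpG pairs, KDR 17, PDGFRB 9 and EGFR 25, beside a median of 11. PDGFRB also held 1 CCAAT motif, which 32% of windows have, and none of the 4 held TATAAA, which 10.7% have. No feature counted here was shared by the KDR, PDGFRB and IGF1R windows and missing from the EGFR window shown. The window of the other EGFR start, not shown, held 0 GC boxes, 2 TATAAA motifs, 1 CpG pair and 38.8% G and C. The sequences of ERBB2 and PDGFRA, which were also lower at 48 h, are not shown. The ERBB2 window held 0 GC boxes and 65.6% G and C. The 2 PDGFRA windows held 0 and 2 GC boxes, with 46.8% and 64.0% G and C. Of the 10 receptors 9 were matched in the RefSeq table. Which start the cells used was not measured.

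Between the 3 drug times the receptors changed again. At 48 h against 24 h, 9 of 10 were called, 8 lower and EGFR higher, against a background of 66.8% (31.5% higher and 35.3% lower), with a median log2 change of -0.67 beside -0.07 over all genes. The libraries of 9 receptors did not overlap, as for 82.3% of genes. ERBB2 was at 4.93 ± 0.858 CPM at 48 h and 12.2 ± 0.0349 CPM at 24 h (2.47-fold lower, log2 change -1.31 ± 0.16, adjusted p = 2.05e-05). PDGFRA was 2.59-fold lower at 48 h than at 24 h (-1.37 ± 0.18, adjusted p = 3.39e-05) and KDR 2.79-fold lower (-1.48 ± 0.15, adjusted p = 5.55e-06). FGFR1 was not called (-0.08, adjusted p = 0.279). EGFR was not called with library totals (0.14, adjusted p = 0.199, in a range of 2.59e-06 to 0.199), and MET, lower at 48 h (-0.22, adjusted p = 0.0318), was called in 7 of 17 other settings.

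At 24 h against 4 h, 5 of 10 were called, against a background of 41.5% (21.2% higher and 20.3% lower), and the libraries of 9 did not overlap, as for 75.8% of genes. ERBB2 was 1.96-fold higher at 24 h than at 4 h (log2 change 0.97 ± 0.15, adjusted p = 0.000461), MET 1.63-fold higher (0.71 ± 0.08, adjusted p = 4.53e-05) and AXL 1.17-fold higher (0.22 ± 0.06, adjusted p = 0.00964). PDGFRB was 1.46-fold lower at 24 h (-0.55 ± 0.09, adjusted p = 0.000783) and KDR 1.29-fold lower (-0.37 ± 0.13, adjusted p = 0.042). The calls of ERBB2, MET and PDGFRB were made under all 18 other settings, those of AXL under 15 and of KDR under 11. EGFR, with 154 ± 10 CPM at 24 h and 177 ± 13.1 CPM at 4 h, was not called (-0.20, adjusted p = 0.0873), and it was called lower in 6 of 18 other settings, in a range of 0.00124 to 0.443.

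The ligands of these receptors were examined as a list. Of 31 ligand genes listed, 24 had enough counts to be tested. At 48 h 4 were higher and 12 lower, with a median log2 change of -0.48 beside -0.02 over all genes. At 4 h 6 were higher and 6 lower, and at 24 h 2 were higher and 4 lower. The 16 of 24 called at 48 h and 6 of 24 at 24 h lay near the shares over all genes of 66.9% and 22.3%, while the 12 of 24 at 4 h stood beside 28.6%. With library totals the 48 h count was 1 higher and 17 lower. With 1 library left out, the number of ligands called ran from 8 (without Control replicate 1) to 13 at 4 h, from 2 (without 24 h replicate 1) to 10 (without 48 h replicate 1) at 24 h and from 13 to 16 at 48 h. Among the EGFR ligands EGF, TGFA, HBEGF, AREG and EREG were called lower at 48 h and BTC was not, and the call of EGF, with 46 to 121 counts per library, was made in 7 of 16 other settings and lost in DESeq2 (adjusted p = 0.0565) and without Control replicate 2 (-0.34, adjusted p = 0.399), in a range of 0.0103 to 0.399. AREG was barely detected, with 17 and 20 counts in control libraries and 3 and 1 counts at 48 h. EREG had 287 and 282 CPM at 48 h, against 916 and 924 CPM in control libraries (log2 change -1.69 ± 0.06, adjusted p = 2.31e-09). TGFA had 28.1 and 27.2 CPM at 48 h, against 106 and 101 CPM in control libraries (-1.90 ± 0.07, adjusted p = 3.1e-09). HBEGF was at 6.12 ± 0.431 CPM at 48 h and 38.5 ± 2.33 CPM in control cells (-2.65 ± 0.11, adjusted p = 5.46e-09). In these libraries EGFR transcripts were thus higher while those of EREG, TGFA and HBEGF were lower. At 4 h HBEGF was higher (1.02 ± 0.09, adjusted p = 1.48e-05), with 80.4 and 75.4 CPM at 4 h, against 40.1 and 36.8 CPM in control libraries. EREG, with 654 and 607 CPM, was lower at 4 h (-0.545 ± 0.057, adjusted p = 5.64e-05). TGFA was also lower at 4 h (-0.211 ± 0.065, adjusted p = 0.0328), a call made in 12 of 18 other settings. EGF, AREG and BTC were not called at 4 h. At 24 h TGFA was higher (0.40 ± 0.07, adjusted p = 0.00142).

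VEGFA, the main ligand of KDR, had 1610 and 1560 CPM at 4 h, against 550 and 504 CPM in control libraries (log2 change 1.59 ± 0.07, adjusted p = 7.63e-08). At 48 h it had 232 and 245 CPM, below the controls (-1.14 ± 0.07, adjusted p = 7.2e-08). VEGFC was also lower at 48 h (-0.49 ± 0.08, adjusted p = 0.000219) and VEGFB, which binds another VEGF receptor, was higher (0.46 ± 0.09, adjusted p = 0.000872), though not called with library totals (0.18, adjusted p = 0.0777, in a range over the other settings of 1.76e-06 to 0.0777). HGF, the ligand of MET, had 40.7 and 41.8 CPM at 4 h and 64.0 and 61.9 CPM at 48 h, against 81.3 and 92.8 CPM in control libraries. It was lower at 4 h (-1.08 ± 0.08, adjusted p = 4.58e-06) and at 48 h (-0.47 ± 0.08, adjusted p = 0.000216) and was not called at 24 h (-0.22, adjusted p = 0.0582). HGF and MET were thus both lower at 4 h.

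Among the other ligands, FGF7 had 1.80 and 2.17 CPM at 48 h, against 30.6 and 28.4 CPM in control libraries (log2 change -3.89 ± 0.15, adjusted p = 3.81e-09), and was already lower at 24 h (-0.73 ± 0.11, adjusted p = 0.000924). FGF7 acts on an FGFR2 isoform and FGFR2 itself was too low to be tested. FGF1 was lower at 48 h (-1.84 ± 0.25, adjusted p = 4.83e-05) and FGF2 higher (0.60 ± 0.07, adjusted p = 2.41e-05). FGF5 was higher at 24 h (0.58 ± 0.14, adjusted p = 0.0127), a call lost without Control replicate 1, 24 h replicate 1 or 24 h replicate 2 (adjusted p = 0.134, 0.0832 and 0.0736). PDGFA was at 3.18 ± 0.171 CPM at 48 h and 9.43 ± 0.000111 CPM in control cells (-1.57 ± 0.13, adjusted p = 1.31e-06), so PDGFA and both PDGF receptors were lower at that time. PDGFC was not called at 48 h (-0.17, adjusted p = 0.088), and PDGFB and PDGFD were too low to be tested. At 4 h, when both PDGF receptors were higher, PDGFA was higher (0.403 ± 0.115, adjusted p = 0.0223) and PDGFC lower (-0.60 ± 0.083, adjusted p = 0.000347). At 24 h PDGFA was lower (-0.372 ± 0.117, adjusted p = 0.0422) while PDGFRA was higher. The PDGFA calls at 4 h and 24 h were made in 13 and 9 of 18 other settings. For AXL, neither GAS6 (-0.11, adjusted p = 0.24) nor PROS1 (0.16, adjusted p = 0.0941), a ligand of its relatives, was called at 48 h, and GAS6 was lower at 24 h (-0.32 ± 0.08, adjusted p = 0.0131), a call lost on leaving out any 1 of the 4 libraries involved (adjusted p = 0.0585 to 0.115). IGF1 had 1 to 7 counts per library, and IGF2 and INS had 0 in all 8 libraries.

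Of 33 other receptor tyrosine kinases listed, 17 were tested, among which 3 were higher and 2 lower at 4 h, 6 higher and 0 lower at 24 h, and 5 higher and 7 lower at 48 h. The 5 of 17 called at 4 h and 12 of 17 at 48 h lay near the shares over all genes of 28.6% and 66.9%, and the 6 of 17 at 24 h stood beside 22.3%. At 24 h edgeR had 1 lower at an unadjusted p under 0.05 and DESeq2 called 0 lower. Leaving out Control replicate 2 brought the number called to 2 at 4 h and 3 at 24 h. EPHA2, an ephrin receptor, had 96.4 and 104 CPM at 24 h and 21.2 and 19.6 CPM at 48 h, against 49.0 and 48.6 CPM in control libraries, so it was higher at 24 h (log2 change 1.04 ± 0.08, adjusted p = 8.07e-06) and lower at 48 h (-1.26 ± 0.08, adjusted p = 1.98e-07). EPHB2 was higher at 4 h (0.74) and 24 h (0.43), and EPHA4 at 4 h (0.68), a call lost without Control replicate 2 or 4 h replicate 1 (adjusted p = 0.0897 and 0.0668). EPHA4 was also higher at 24 h (0.78 ± 0.16, adjusted p = 0.00537) and lower at 48 h (-1.03 ± 0.19, adjusted p = 0.000477). At 48 h EPHB2 was higher (0.21 ± 0.07, adjusted p = 0.0259). TYRO3, a relative of AXL, was higher at 24 h (0.47 ± 0.07, adjusted p = 0.000723) and 48 h (0.63 ± 0.07, adjusted p = 9.94e-06). DDR2, a collagen receptor, was higher at 48 h (0.91 ± 0.09, adjusted p = 3.41e-06). The remaining members of the ERBB family, ERBB3 and ERBB4, and the other VEGF receptors, FLT1 and FLT4, were too low to be tested.

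All 33 adaptor and cascade genes listed were tested. At 4 h 3 were higher and 4 lower, at 24 h 3 higher and 1 lower, and at 48 h 13 higher and 15 lower. Over all genes 28.6%, 22.3% and 66.9% were called at these times, which is also the background of the lists that follow. BRAF, a kinase of the RAS-ERK cascade, had 42.8 and 43.1 CPM at 48 h, against 13.7 and 14.8 CPM in control libraries (log2 change 1.59 ± 0.09, adjusted p = 8.23e-08). GAB2, a docking protein, was higher (1.76 ± 0.15, adjusted p = 1.24e-06) and PIK3R1, a regulatory subunit of PI3 kinase, lower (-1.32 ± 0.10, adjusted p = 4.21e-07). The median at 48 h was -0.07 and became 0.05 with the length and GC correction, and the count was 5 higher and 19 lower with library totals. With 1 library left out, the number called ran from 1 (without 4 h replicate 2) to 13 (without 48 h replicate 1) at 4 h and from 0 (without Control replicate 1, with 5 at an unadjusted p under 0.05 in edgeR) to 11 (without 48 h replicate 1) at 24 h. At 4 h PIK3R2 (-0.46) and IRS1 (-0.60), the substrate of the insulin and IGF receptors, were lower and MAP2K1 (0.26) higher. At 24 h PIK3CB (0.28), a catalytic subunit of PI3 kinase, was higher. The calls of MAP2K1 and PIK3CB were lost on leaving out any 1 of the 4 libraries involved (adjusted p = 0.0519 to 0.16), and that of IRS1 without Control replicate 2 or 4 h replicate 2 (adjusted p = 0.0747 and 0.0708).

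Negative regulators of receptor signalling changed in both directions. Of 28 tested, 9 were higher and 3 lower at 4 h, 6 higher and 3 lower at 24 h, and 9 higher and 16 lower at 48 h, with medians of 0.10, 0.08 and -0.36. The number called was 7 at 4 h without Control replicate 2 and 5 at 24 h without 24 h replicate 2, and 14 at 24 h without 48 h replicate 1. SPRY4, an inhibitor of the RAS-ERK cascade, had 5.10 and 7.77 CPM at 48 h, against 34.7 and 36.8 CPM in control libraries (log2 change -2.47 ± 0.15, adjusted p = 1.2e-07). SOCS3, an inhibitor of cytokine receptor signalling, had 8.74 and 12.5 CPM at 48 h, against 94.5 and 86.6 CPM in control libraries (-3.09 ± 0.13, adjusted p = 7.41e-09). LRIG1, which promotes loss of ERBB receptors and MET, was lower at 24 h (-0.40 ± 0.07, adjusted p = 0.00241) and 48 h (-1.25 ± 0.07, adjusted p = 8.61e-08). At 4 h DUSP5 (0.78), an ERK phosphatase, SPRED2 (0.75) and ERRFI1 (0.81), an inhibitor of the EGFR kinase, were higher, and SPRY2 (0.59) and DUSP5 (0.59) were higher at 24 h.

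Of 20 coreceptors, binding proteins and sheddases, 5 were higher and 3 lower at 4 h, 6 higher and 2 lower at 24 h, and 4 higher and 9 lower at 48 h. At 24 h the number called was 5 without Control replicate 2. IGFBP3, a binding protein of insulin-like growth factors, had 749 and 737 CPM at 24 h and 502 and 482 CPM at 48 h, against 272 and 288 CPM in control libraries (log2 changes 1.41 ± 0.06 and 0.81 ± 0.06, adjusted p = 4.92e-07 and 3.8e-07). IGFBP1 was higher at 4 h (1.48) and 24 h (1.61), and IGFBP4 (1.31) and SDC4 (0.66), a syndecan, at 4 h. ADAM17, which sheds EGFR ligands, was lower at 48 h (-0.86 ± 0.08, adjusted p = 3.87e-06), as was ADAM12 (-0.89). Both were higher at 24 h, ADAM17 by 0.29 ± 0.08 (adjusted p = 0.0245) and ADAM12 by 0.41. Among 8 genes commonly induced by ERK, 3 were higher and 2 lower at 4 h, 2 higher and 0 lower at 24 h, and 3 higher and 4 lower at 48 h. At 24 h edgeR had 0 lower at an unadjusted p under 0.05 and DESeq2 called 0 lower. ETV1 had 69.4 and 69.6 CPM at 4 h and 78.5 and 74.0 CPM at 48 h, against 151 and 156 CPM in control libraries (-1.14 ± 0.06 and -1.01 ± 0.06, adjusted p = 6.21e-07 and 1.25e-07). CCND1 was higher at 4 h (0.55) and lower at 48 h (-0.82), EGR1 was higher at 24 h (1.11) and 48 h (1.27), IER3 at 4 h (0.99) and FOSL1 at 24 h (0.46). At 4 h and 48 h the list thus held calls in both directions.

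**Figure D4:**
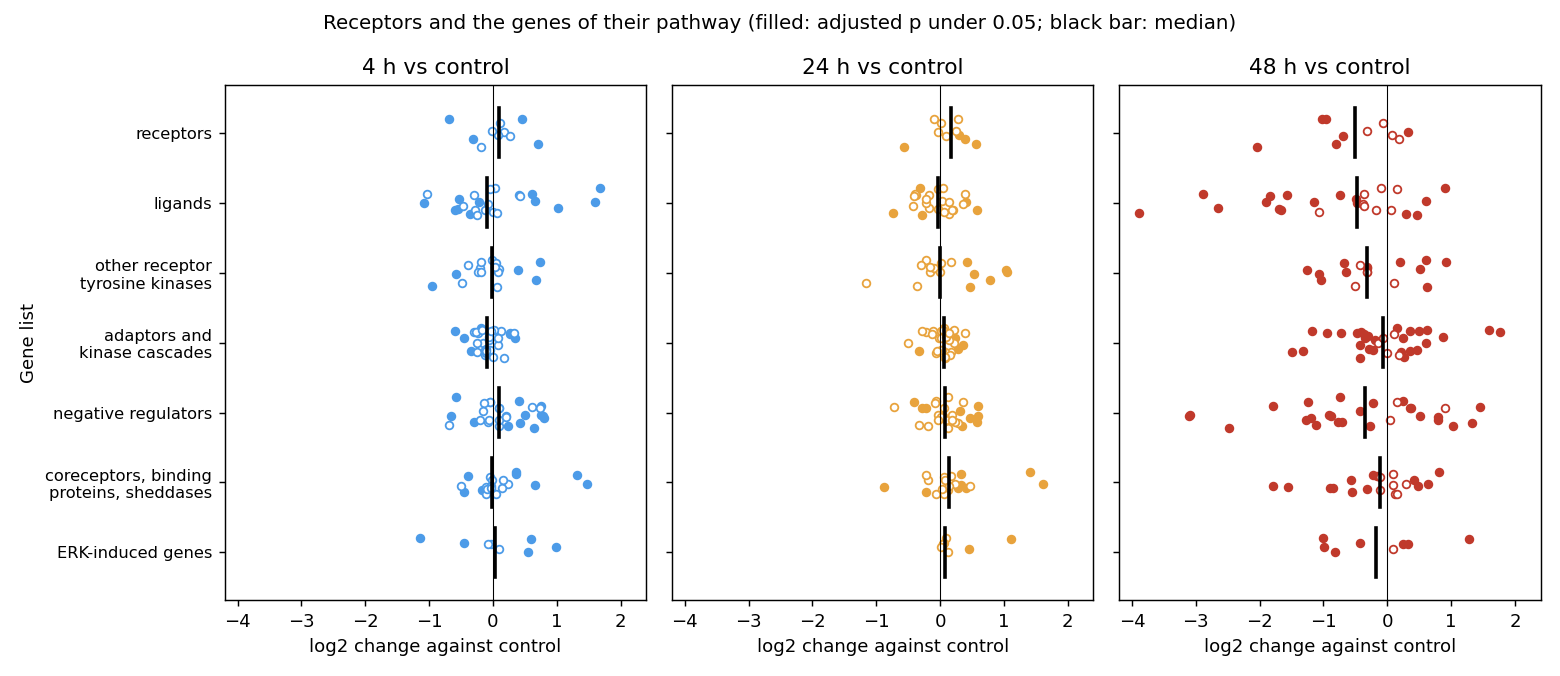
Log2 change of each tested gene against control cells at 4, 24 and 48 h, for the receptors and each pathway list. Points are genes, with higher levels to the right and lower levels to the left. Filled points mark an adjusted p under 0.05, and black bars are medians. At 48 h the ligands have 4 called higher and 12 lower, and the negative regulators 9 higher and 16 lower.

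For the 3 receptors with the largest changes against control cells, the genes with the most similar levels were found by Pearson's r of log2 CPM over the 8 libraries among 10903 genes. These points share groups of libraries, so r is a description. KDR was followed most closely by SLC6A6 (r = 0.9994), a taurine transporter, QSOX2 (0.9981) and CPM, the gene of carboxypeptidase M (0.9967), and 23 genes were above 0.99. ERBB2 was followed by LARS2 (0.9907), FKBP9L (0.9881) and CLK2 (0.987), with 1 gene above 0.99. PDGFRB was followed by RPUSD2 (0.9954), MFAP3 (0.9943) and SLC25A32 (0.9938), with 17 above 0.99.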

How the data were processed

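RNA-seq of 8 U87MG libraries was used, 2 per group, with groups and replicate numbers as in the labels. The authors deposited whole-number read counts per gene symbol, 1 file per library, not normalised. The submitters' processing notes name Bowtie, hg19 and GRCh37. Not given in the sources used here are its version, the counting rule, strand use and annotation. Of the 23368 names listed, 28 had been turned into dates and held 0.191 to 0.224% of counts. They stayed in the totals.

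The counts were tested with edgeR 4.0.16 under R 4.3.3. filterByExpr kept 14448 genes, TMM factors were 0.870 to 1.08, and a single quasi-likelihood model with a coefficient for each group was fitted to all 8 libraries (4 residual degrees of freedom, biological coefficient of variation 7.15%). Adjusted p-values are Benjamini-Hochberg over all tested genes, with calls under 0.05. A standard error is the size of the log2 change over the root of its F statistic. Levels are CPM scaled by TMM, and library totals of 24620833 to 37162565 counts limit precision for PDGFRA, ERBB2 and KDR, which had the fewest reads. The steps were tested on simulated data.

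The receptors and pathway lists were chosen with earlier results of these data known. Named genes are the 10 receptors, up to 3 called genes with the smallest p per list and time against control, ligands of the receptors described, and the 3 genes most correlated with each of the 3 receptors with the largest changes. Not every gene this rule picks is reported here. Other genes are named for absence, as markers, or as ligands after their values were seen. Other settings were DESeq2 1.42.0, its size factors in edgeR, library totals, no filter, a filter of 5 CPM in 2 libraries, the replicate block, only the groups compared, no 48 h libraries, and each library left out. Correcting for transcript length and GC (12765 genes, GENCODE on GRCh38), with and without the block, was chosen after seeing the data. A group left with 1 library was assumed to vary like the others. Promoter sequences are from RefSeq. No hg19 coordinates are given.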

Additional observations from a re-analysis of the deposited data

Results flagged for a closer look

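Receptors whose level differed between 2 drug times are given here, each by the direct test of that difference in edgeR. At 24 h against 4 h the log2 differences were 0.97 for ERBB2, 0.71 for MET, 0.22 for AXL, -0.55 for PDGFRB and -0.37 for KDR. At 48 h against 24 h they were 0.35 for EGFR, -1.31 for ERBB2, -1.37 for PDGFRA, -0.87 for PDGFRB, -0.22 for MET, -0.23 for AXL, -0.77 for IGF1R, -0.57 for INSR and -1.48 for KDR. INSR lost this call without 24 h replicate 2 (adjusted p = 0.0579, in a range over the other settings of 3.66e-05 to 0.0579). The outlying libraries of a group could not be looked for with 2 libraries per group.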

How the results depend on the processing

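Over 18 other settings, 2060 of 2249 single-gene values kept their direction and their side of the threshold, 135 lost a call, 32 gained one and 22 changed sign. The number of genes called at 24 h was 5051 with only the groups compared and 4907 without the 48 h libraries, against 3222. With 1 library left out, genes called ran from 2227 to 5783 at 4 h, 1349 to 4954 at 24 h, 8261 to 9844 at 48 h, 3823 to 7338 for 24 h against 4 h and 8273 to 9811 for 48 h against 24 h. Receptors called ran from 0 to 5, 0 to 4, 5 to 8, 3 to 7 and 7 to 10 in the same order. Changes of sign were those of INSR at 4 h (0.099 without Control replicate 2, 0.10 without 4 h replicate 2, 0 with the block and length correction), EGFR at 24 h (0.045 without Control replicate 2, 0.035 without 24 h replicate 1) and FGFR1 at 24 h (-0.011 in DESeq2 and with its size factors, -0.045 with library totals, -0.003 with only the groups compared, -0.001 without the 48 h libraries, 0 with either length correction). At 48 h they were MET (-0.099) and AXL (-0.208) with library totals, AXL with the 5 CPM filter (-0.012), and FGFR1 without 48 h replicate 1 (0.023) and with either length correction (0.052). For 24 h against 4 h PDGFRA changed sign without 4 h replicate 1 (0.019), and for 48 h against 24 h FGFR1 without 48 h replicate 1 (0.002) and with either length correction (0.052). With 1 library left out INSR at 4 h ran from -0.115 to 0.10, EGFR at 24 h from -0.102 to 0.045, and FGFR1 from -0.148 to 0.023 at 48 h and from -0.168 to 0.002 for 48 h against 24 h. The causes were not tested. Library totals moved the median of all genes to -0.07 at 4 h, -0.05 at 24 h, -0.30 at 48 h and -0.28 for 48 h against 24 h, and the share of calls that were higher to 38.2%, 41.4%, 29% and 32.1%, against 52.4%, 57.9%, 49.8% and 47.1%. Equal replicate numbers were not a pairing in the labels, and deviations of same-numbered libraries correlated by -0.005 to 0.135 across groups. With the replicate block, 4, 4, 7, 5 and 9 receptors were called in the 5 comparisons, and MET at 48 h was the added call (0.18, adjusted p = 0.0229). All genes called numbered 4624, 3749, 9884, 6370 and 9890 with the block. Depth limits the low receptors, PDGFRA with at least 66 counts per library, KDR with at least 101 and ERBB2 with at least 127.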
